A study of Mus musculus with 5 samples.

Results

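The net change between the start and the end of the time course was taken over every listed start site of each gene. It compares open chromatin in the 2 h library with that in the 0 h library. Its members are the sites with no entry at 0 h and 1 or more entries at 2 h, called gained, and the sites of the reverse kind, called lost. Of 34714 sites, 6563 were gained (18.9%) and 285 were lost (0.821%), which gives 6848 sites that changed. Of 8034 genes with a name, 496 were gained (6.17%), with every site uncovered at 0 h and 1 or more covered at 2 h, and 71 were lost (0.884%).

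The cells were C17.2, an established line of multipotent neural stem cells from mouse, of the strain background CD1 x C57BL/6, which is 1 line and not primary tissue. The 0 h library came from cells in their growth medium, DMEM/F12 with fetal bovine serum, and is labelled as the control. The 0.5, 1, 1.5 and 2 h libraries came from cells moved to Knockout DMEM with GlutaMAX and N2 supplement, a serum-free medium that starts neural differentiation. The labels give these 5 times, while the series' design text names only baseline, 1 h and 2 h, so the place of the 0.5 and 1.5 h libraries rests on the labels alone. Each time has 1 library, so no difference below has a replicate check, and no test between times was run. The assay was ATAC-seq, in which a transposase inserts sequencing adapters into DNA that is not wrapped tightly around nucleosomes. Each value is a whole number, taken to count the entries in a library's BED file that lie over a site 1 to 23 bp wide, and a site with 1 or more entries is called covered. Neighbouring sites often lie under the same interval, so they are not independent observations.

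The libraries differed as wholes. The shares of sites that were covered in the 0, 0.5, 1, 1.5 and 2 h libraries were 47.6, 58.7, 51.2, 66.9 and 65.7%. The entries summed over all sites were 42527 at 0 h and 59437 at 2 h, with 65824 at 1.5 h. The read depth is unknown, and its part in the net change was not tested. In a bulk library, a site open in fewer cells and a site less open in every cell cannot be told apart. Of the 13 neural progenitor markers listed, 7 had sites in the table, and 3 of these were covered in the 0 h library, 5 in the 1.5 h library and 4 in the 2 h library. Of other cell types, 4 oligodendrocyte markers had sites, of which Olig1, Olig2 and Mbp were at 0 in both the 0 h and the 2 h library and Pdgfra had means of 1.33 and 1 entries. Of 3 neuron markers, Rbfox3 was at 0 in both, Map2 held 2 and 2 entries and Mapt 0.78 and 1.78. Of 4 astrocyte markers 2 were covered at each of these times, Sox9 with 4 and 4 entries and Nfib with means of 0.5 and 4. Of 5 microglia and blood markers only Cx3cr1 had sites, with means of 0.67 and 1, and no endothelial marker had a site.

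The start region of an active mammalian gene is usually kept free of a nucleosome, and many start regions are CpG islands, stretches rich in the dinucleotide CpG. Open chromatin at a start lets the transcription machinery bind, but an open start need not be transcribed. Many regulators of neural development have CpG island starts.

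Start regions of 4 gained genes, 2 lost genes and the lost gene Chd4 are printed to show what such regions look like. Each is the RefSeq window of 300 bases, from 250 before to 50 after a start annotated for the gene, on build GRCm38.p6, read 5′ to 3′ along the gene's strand. Capitals mark the bases of the deposited sites.
Kdm7a, chr6:39206724-39207023, minus strand: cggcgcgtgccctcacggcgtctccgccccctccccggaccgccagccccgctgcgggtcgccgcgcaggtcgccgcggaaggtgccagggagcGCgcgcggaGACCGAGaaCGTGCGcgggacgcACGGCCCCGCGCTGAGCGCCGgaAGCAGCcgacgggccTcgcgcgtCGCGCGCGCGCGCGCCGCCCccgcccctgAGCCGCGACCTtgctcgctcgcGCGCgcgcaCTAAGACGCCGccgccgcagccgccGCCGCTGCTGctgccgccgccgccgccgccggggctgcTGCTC
Sgms1, chr19:32388000-32388299, minus strand: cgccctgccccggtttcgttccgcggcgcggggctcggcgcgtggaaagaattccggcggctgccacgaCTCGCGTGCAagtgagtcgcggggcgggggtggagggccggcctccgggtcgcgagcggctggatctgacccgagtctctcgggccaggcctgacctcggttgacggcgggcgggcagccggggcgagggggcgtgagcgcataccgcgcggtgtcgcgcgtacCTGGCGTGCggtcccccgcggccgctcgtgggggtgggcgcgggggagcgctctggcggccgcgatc
Gnai1, chr5:18360364-18360663, minus strand: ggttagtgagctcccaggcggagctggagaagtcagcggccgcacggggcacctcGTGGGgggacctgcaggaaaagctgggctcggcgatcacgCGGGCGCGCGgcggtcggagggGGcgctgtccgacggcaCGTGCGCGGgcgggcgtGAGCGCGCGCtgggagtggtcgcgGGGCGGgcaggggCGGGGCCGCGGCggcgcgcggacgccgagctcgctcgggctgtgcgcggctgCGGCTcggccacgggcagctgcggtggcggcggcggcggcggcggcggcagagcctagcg
Nek6, chr2:38511447-38511746, plus strand: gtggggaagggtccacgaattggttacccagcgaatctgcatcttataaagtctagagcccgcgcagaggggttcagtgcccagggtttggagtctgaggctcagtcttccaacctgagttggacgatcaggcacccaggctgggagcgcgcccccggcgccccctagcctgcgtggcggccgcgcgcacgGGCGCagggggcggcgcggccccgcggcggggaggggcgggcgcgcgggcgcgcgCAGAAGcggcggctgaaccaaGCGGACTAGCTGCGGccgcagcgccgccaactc
Ephx4, chr5:107403263-107403562, plus strand: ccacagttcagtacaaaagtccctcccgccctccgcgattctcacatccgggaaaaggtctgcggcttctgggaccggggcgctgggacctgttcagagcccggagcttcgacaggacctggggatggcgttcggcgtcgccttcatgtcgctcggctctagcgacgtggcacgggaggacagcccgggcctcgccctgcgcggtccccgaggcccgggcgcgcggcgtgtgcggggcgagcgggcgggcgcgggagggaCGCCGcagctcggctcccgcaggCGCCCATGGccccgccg
1700086L19Rik, chr12:74284026-74284325, plus strand: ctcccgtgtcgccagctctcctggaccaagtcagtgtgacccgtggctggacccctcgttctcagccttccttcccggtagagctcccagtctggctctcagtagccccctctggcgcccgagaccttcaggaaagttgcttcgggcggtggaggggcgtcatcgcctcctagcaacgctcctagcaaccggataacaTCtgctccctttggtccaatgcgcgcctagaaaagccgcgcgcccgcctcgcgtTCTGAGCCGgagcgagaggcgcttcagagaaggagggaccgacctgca
Chd4, chr6:125095731-125096030, plus strand: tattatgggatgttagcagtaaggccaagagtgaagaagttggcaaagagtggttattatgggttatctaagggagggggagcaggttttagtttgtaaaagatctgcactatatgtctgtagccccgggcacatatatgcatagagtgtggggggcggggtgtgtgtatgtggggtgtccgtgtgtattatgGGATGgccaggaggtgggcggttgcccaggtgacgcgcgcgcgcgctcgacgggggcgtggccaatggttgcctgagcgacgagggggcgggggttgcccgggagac

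The Kdm7a window held 65 CpG dinucleotides and 16 sites, and each of those sites went from 0 entries in the 0 h library to 6 in the 2 h library. The Sgms1 window held 51 CpG dinucleotides, the Gnai1 window 53 and the Nek6 window 36. Among the windows of lost genes, that of Ephx4 held 41, that of 1700086L19Rik 25 and that of Chd4 17. These windows illustrate the classes, and the comparison over all windows is given further on.

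Most of the gained sites were lightly covered. At 2 h, 1265 gained sites held 1 entry, 2161 held 2, 1655 held 3 and 1482 (22.6%) held 4 or more, with a median of 2. The lost sites were similar in height at 0 h: 94 held 1 entry, 107 held 2 and 46 (16.1%) held 4 or more. Among the 16227 sites covered at both times, entries were higher at 2 h at 4825, equal at 6475 and lower at 4927. The net change was thus lopsided in which sites were covered, while sites covered at both times were about as often lower as higher. Where 2 or more entries were required for a site to count as covered, 7121 sites were gained and 1316 lost, so the number of lost sites depends on that limit.

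Most gained sites were already covered at 1.5 h. Of the 6563 gained sites, 5934 (90.4%, Wilson 95% interval 89.7 to 91.1%, counting error over sites only) had 1 or more entries at 1.5 h. The same share was 37.6% over all 18202 sites uncovered at 0 h, the gained ones included, and 7.84% over the 11639 sites uncovered at both 0 h and 2 h. The comparisons at 1.5 h and 2 h share the single 0 h library, which had the lowest share of covered sites. A site missed in that library could count both as gained and as already covered at 1.5 h. At 0.5 h, 3888 gained sites (59.2%) were covered, but at 1 h only 2237 (34.1%) were. The mean entries over the gained sites were 0, 1.56, 0.776, 2.65 and 2.61 in the 5 libraries in order of time. The level of the gained sites at 2 h was therefore reached by 1.5 h, with a dip in the 1 h library, in which fewer sites were covered overall than at 0.5 h or 1.5 h. Of the gained sites covered at 1.5 h, 2684 held the same number of entries at 2 h, 2114 held fewer and 1136 held more.

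**Figure D1:**
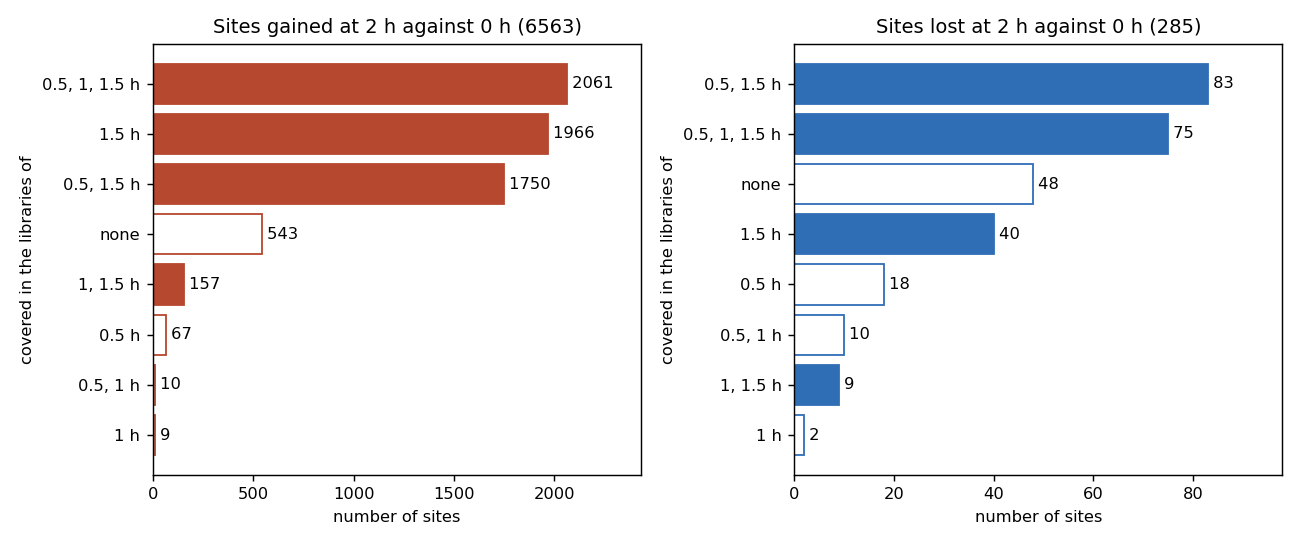
Number of sites (horizontal axis) gained (left) or lost (right) at 2 h against 0 h, split by the intermediate libraries in which they were covered (vertical axis). Filled bars are covered at 1.5 h and open bars are not: 5934 of 6563 gained sites and 207 of 285 lost sites fall in filled bars.

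The gained sites took few of the possible courses, as the bars of sites by intermediate libraries show. 2061 were covered in all 3 intermediate libraries, 1966 only at 1.5 h, and 1750 at 0.5 and 1.5 h but not at 1 h. A further 543 gained sites (8.27%), in 259 genes, were uncovered in every earlier library and averaged 1.99 entries at 2 h.

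Most of the lost sites were covered at 1.5 h. Of the 285, 78 (27.4%, interval 22.5 to 32.8%) were uncovered at 1.5 h, against 0.824% of all 16512 sites covered at 0 h. At 1 h, 189 (66.3%) were uncovered, against 6.37% of all sites covered at 0 h. The commonest course, with 83 sites, was covered at 0.5 h and 1.5 h and uncovered at 1 h. A further 40 were covered at 1.5 h and uncovered at 0.5 h and 1 h. Many sites covered at 1.5 h were thus uncovered before it. The 1.5 h library covered the largest share of all sites, 66.9%, against 51.2% in the 1 h library, and the part of this in the timing of loss was not tested. Only 48 lost sites were uncovered in every library after 0 h. The mean entries over the lost sites were 2.22, 1.54, 0.589, 1.86 and 0 in the 5 libraries in order of time, with the first above 0 and the last at 0 by definition.

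Most gained sites lay in start regions that already held a covered site. When sites at most 500 bp apart were merged, 9217 regions resulted, of which 5979 were covered at both times, 552 were gained (5.99%) and 102 were lost (1.11%). Of the gained regions, 482 (87.3%) were already covered at 1.5 h, and of the lost regions 32 (31.4%) were already uncovered then. Of the gained sites, 2770 (42.2%) lay downstream of sites covered at 0 h in the same region, 1212 (18.5%) between such sites and 763 (11.6%) upstream of them. The other 1800 (27.4%) lay in regions with no site covered at 0 h, and 18 had no usable gene strand. Of the lost sites, 137 (48.1%) lay in regions with no site covered at 2 h and 96 lay downstream of sites still covered. Gained sites between covered sites were covered at 1.5 h in 94.6% of cases, and those in regions with no site covered at 0 h in 84.5%.

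Among the 3977 regions with 2 or more sites that were covered at both times, 1394 (35.1%) had a gained site and 101 had a lost site. The covered stretch, from the first to the last covered site, was longer at 2 h in 1081, shorter in 73 and equal in 2823. Over the 1394 regions with a gained site, the median covered stretches in the 5 libraries, from 0 h to 2 h, were 142, 336, 260, 395.5 and 390 bp. A mean of 3.66 of 8.58 sites per region was covered at 0 h and 7.02 at 2 h. Because these regions were chosen for a gained site, the higher values at 2 h than at 0 h follow largely from that choice. Regions with every site covered made up 60.3% of the 3977 in the 0 h library, 84.7% in the 1.5 h library and 82.8% in the 2 h library.

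A gained site usually matched its neighbours at 2 h. There were 4740 gained sites beside a site covered at both times, and 4458 of them (94.1%) held the same number of entries at 2 h as the highest such neighbour. In the 1389 regions concerned, the highest value among sites covered at both times was higher at 2 h than at 0 h in 720, equal in 499 and lower in 170. The highest value was taken in each library separately, so it need not come from the same site. The comparison is with the 2583 regions that had 2 or more sites, a site covered at both times and no gained site. There the highest such value was higher at 2 h in 490, equal in 1116 and lower in 977. The highest value at sites already covered was thus higher at 2 h in 51.8% of the regions with a gained site, against 19.0% of the regions with several sites and none gained. Gained sites mostly shared the 2 h value of their neighbours and also defined the split, so this difference is not an independent observation.

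**Figure D2:**
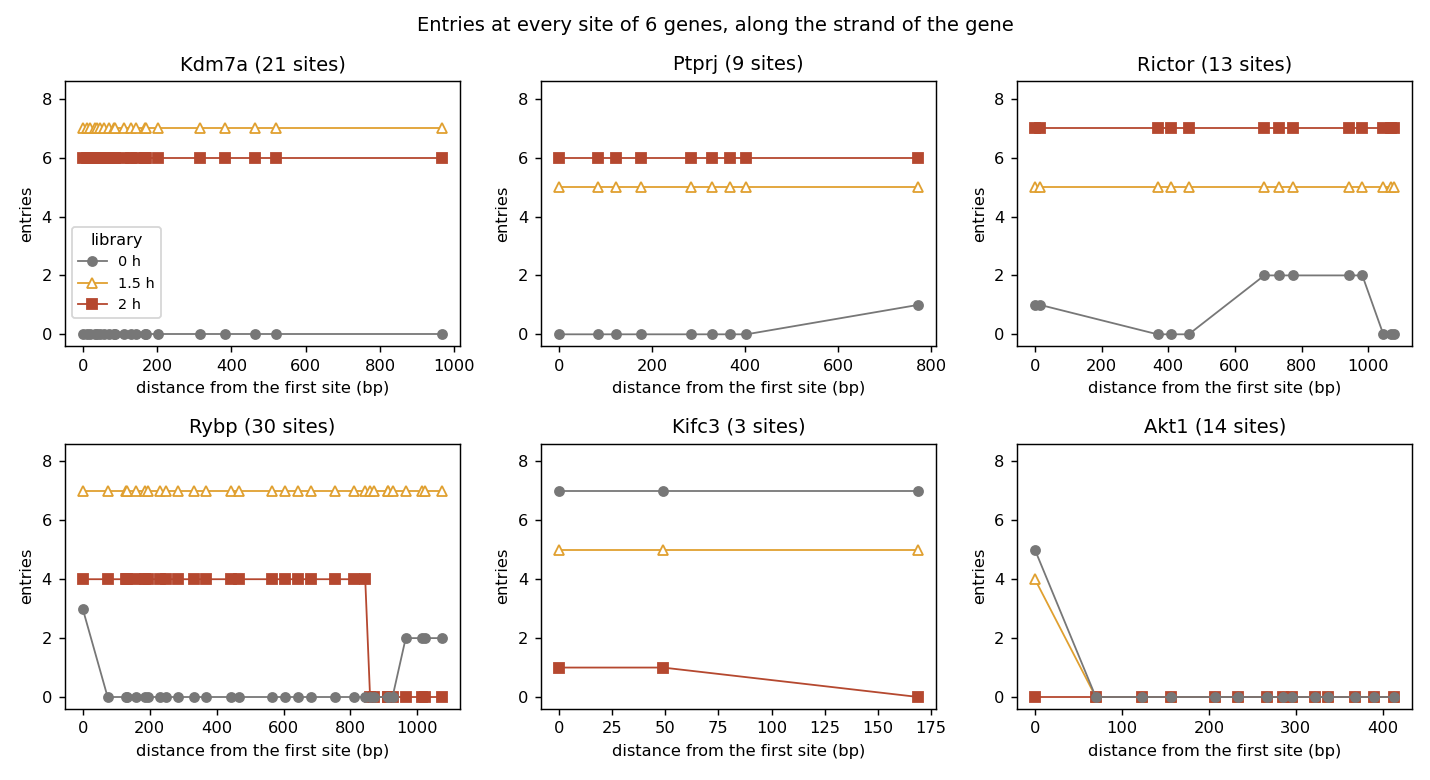
Entries (vertical axis) at each site of 6 genes against the distance in bp from the gene's first site along its strand (horizontal axis), in the 0 h (grey circles), 1.5 h (open triangles) and 2 h (red squares) libraries. At Kdm7a all 21 sites stand at 0 at 0 h and at 6 at 2 h, at Rybp 20 sites are gained and 4 lost, and at Akt1 the only covered site drops from 5 entries to 0.

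The maps of entries along single genes show these forms. Ptprj, a receptor protein tyrosine phosphatase, had 9 sites at chr2:90579852-90580627, and only the one farthest downstream was covered at 0 h, with 1 entry. From 0 h to 2 h that site held 1, 3, 2, 5 and 6 entries, and the other 8 sites held 0, 0, 0, 5 and 6. Rictor, a subunit of the mTOR complex that phosphorylates Akt, had 7 of 13 sites covered at 0 h and all 13 at 2 h, at chr15:6707686-6708766. Its mean entries over sites were 0.92, 3.23, 1.15, 5 and 7 in the same order. In both genes the covered stretch was complete at 1.5 h, and the entries were higher again at 2 h.

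Over the genes as wholes, 5815 of 8034 were covered at both times, and 1652 at neither. Of the 5815, 1410 had 1 or more gained sites, 127 had 1 or more lost sites and 63 had both kinds, while 4341 had no site gained or lost. Counting gained genes as well, 1906 genes (23.7%) had a gained site, and counting lost genes, 198 (2.46%) had a lost site. For 1363 of the 1410 genes with gained sites, the highest site, by its mean over the 5 libraries, was itself covered at both times, so their gained sites appear only when all sites are used. By that highest site alone 530 genes were gained, and 38 of these had another site covered at 0 h. By the highest site 83 genes were lost, and 13 of these were still covered elsewhere at 2 h.

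Of the 496 gained genes, 443 (89.3%, interval 86.3 to 91.7%) already had an entry at 1.5 h, while 188 (37.9%) had one at 1 h and 321 (64.7%) at 0.5 h. 44 gained genes were covered in no earlier library. Of the 71 lost genes, 23 (32.4%, interval 22.7 to 43.9%) were uncovered at 1.5 h and 49 (69.0%) at 1 h, and 13 were uncovered in every later library. The gained genes held more sites than the lost genes, with medians of 4 and 2, and 32 of the 71 lost genes had 1 site only. At 2 h the highest site of 163 gained genes held 1 entry, and 76 gained genes had a site with 4 or more. With 2 or more entries required, 861 genes were gained and 471 lost, a much less lopsided balance. Of the regions that hold gained genes, 62 of 554 were shared with another gene symbol, and a shared region counts for each of its genes.

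**Figure D3:**
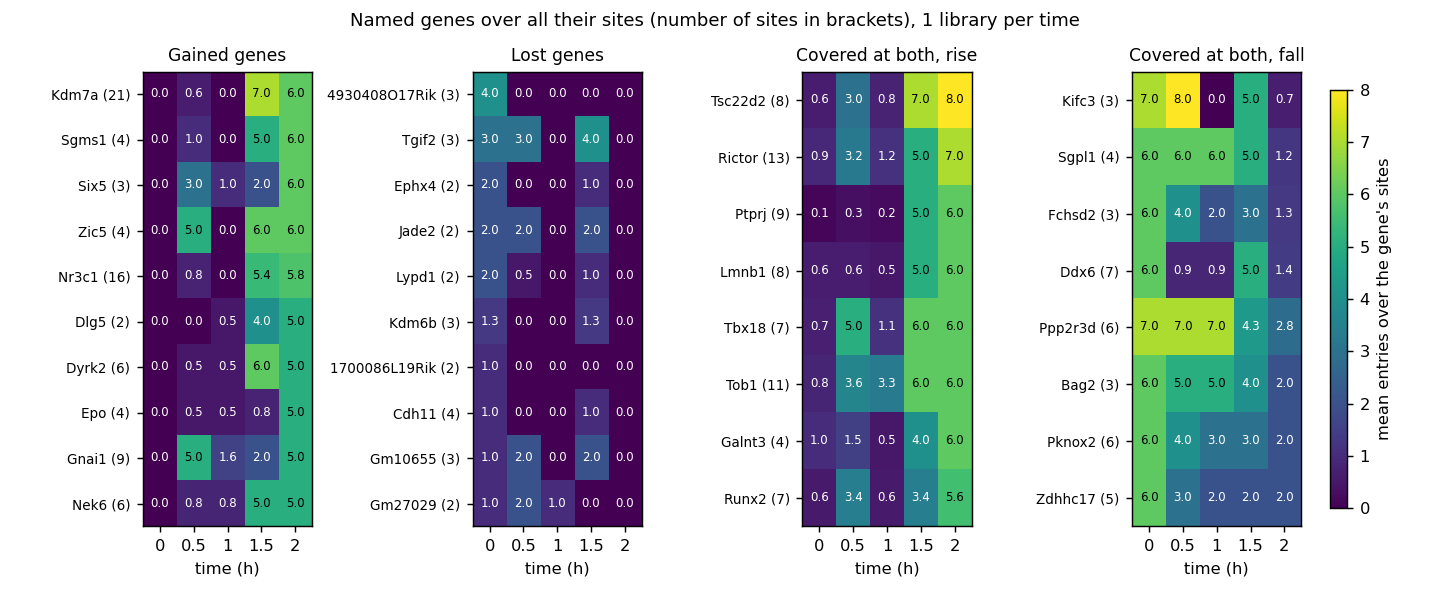
Mean entries over all sites (colour scale and printed values) of the named genes in the 0, 0.5, 1, 1.5 and 2 h libraries (horizontal axis), with the number of sites in brackets. The gained genes run from 0 at 0 h to between 5 and 6 at 2 h, and 7 of the 10 lost genes hold entries at 1.5 h, each after a mean of 0 at 1 h.

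Values for single genes are means over all sites, given for the 0, 0.5, 1, 1.5 and 2 h libraries in that order. Among gained genes with 2 or more sites, the 10 named for the highest mean at 2 h, with ties taken by symbol, held 5 to 6 entries per site. Kdm7a, a histone lysine demethylase, had 21 sites at chr6:39205958-39206929 with means of 0, 0.62, 0, 7 and 6 entries. All 21 were covered at both late times. Sgms1, which makes sphingomyelin, had 4 sites with means of 0, 1, 0, 5 and 6. Nr3c1, the glucocorticoid receptor, had 16 sites at chr18:39489003-39490596, of which 14 held entries in each of the late libraries (1.5 h and 2 h), with means of 0, 0.75, 0, 5.38 and 5.75. Zic5, a zinc finger factor of early neural development, stood at 0, 5, 0, 6 and 6 over 4 sites. In these genes the 1 h library was back at 0.

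Other gained genes took other courses. Six5, a homeodomain factor, stood at 0, 3, 1, 2 and 6 over 3 sites. Gnai1, an inhibitory G protein alpha subunit, stood at 0, 5, 1.56, 2 and 5 over 9 sites, so its 0.5 h value equalled that at 2 h. For Epo, the gene of the hormone erythropoietin, the 4 sites held means of 0, 0.5, 0.5, 0.75 and 5, and 1 site was covered before 2 h. The Epo sites lay upstream of the RefSeq 5′ end, from -24360 to -25227.5 bp, so their link to Epo rests on the deposited annotation. The Nr3c1 sites lay 28828.5 to 30417.5 bp downstream of the outermost RefSeq 5′ end, and those of Nek6 27777 to 27966 bp. For Dyrk2 it was 20068 to 20759.5 bp. Of genes described further on, Runx2 sites lay 37602.5 to 78632 bp downstream, Kifc3 sites 60255.5 to 60424.5 bp and Ppp2r3d sites 51202.5 to 53479.5 bp. Dlg5, a scaffold protein of cell junctions, stood at 0, 0, 0.5, 4 and 5. The kinase Dyrk2 stood at 0, 0.5, 0.5, 6 and 5, and the mitotic kinase Nek6 at 0, 0.83, 0.83, 5 and 5. Of these 10 genes, all were covered at 1.5 h, and Six5, Epo and Gnai1 were the ones with a mean at 1.5 h under that at 2 h by more than 1 entry.

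The 44 genes first covered at 2 h were low, and the following were chosen after their values were seen. Usf2, a basic helix-loop-helix factor, held 3 entries at its single site at 2 h and 0 before. Amigo2, a neuronal adhesion protein, held 2 entries at each of 6 sites, at chr15:97247023-97247255. The morphogen genes Bmp2 and Wnt4 had 5 of 7 and 3 of 10 sites covered, with means of 1.43 and 0.6 entries. The potassium channel gene Kcnc1 had 7 of 12 sites covered and a mean of 1.17, and the proteoglycan gene Cspg5 had 3 of 4 and a mean of 1.5.

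The lost genes were fewer and lower. 4930408O17Rik, a gene with no function name, held 4 entries at each of 3 sites at 0 h, at chr12:104865092-104865198, and 0 in every later library. 1700086L19Rik held 1 entry at both its sites at 0 h and 0 later. Tgif2, a homeodomain repressor of TGF-beta responses, held 3, 3, 0, 4 and 0 entries at each of its 3 sites. Its 0.5 and 1.5 h values lay at or above that at 0 h, so this loss was seen only in the 1 h and 2 h libraries.

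Kdm6b, a histone demethylase, had 3 sites over chr11:69399430-69410038, of which 1 was covered, with means of 1.33 at 0 h and at 1.5 h and 0 at the other times. Jade2, of a histone acetyltransferase complex, had 1 of 2 sites covered, with means of 2 at 0, 0.5 and 1.5 h and 0 at 1 and 2 h. Ephx4, an epoxide hydrolase gene, had means of 2, 0, 0, 1 and 0 over 2 sites. The cadherin gene Cdh11 held 1 entry at each of 4 sites at 0 h and at 1.5 h, and 0 otherwise. Lypd1, a membrane-anchored modulator of nicotinic receptors, stood at 2, 0.5, 0, 1 and 0, Gm10655 at 1, 2, 0, 2 and 0, and Gm27029 at 1, 2, 1, 0 and 0. Of the 10 lost genes named by rule, 4930408O17Rik, 1700086L19Rik and Gm27029 were uncovered at 1.5 h.

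Some lost genes look different when all their sites are used. Akt1, a protein kinase of insulin signalling, had 14 sites at chr12:112673974-112674395, of which 1 was covered at 0 h. That site held 5, 5, 0, 4 and 0 entries, and the other 13 held 0 throughout, so the mean at 0 h was 0.36. Chd4, an ATPase of the NuRD remodelling complex, had a single site with 5, 5, 2, 4 and 0 entries. Gapdh, a glycolytic enzyme gene, also had a single site, with 6 entries at 0 h and 0 in the 4 later libraries, and it lay 1448 bp downstream of the RefSeq 5′ end. These losses therefore rest on 1 site each.

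The 13 lost genes uncovered in every later library were mostly low at 0 h. Beside Gapdh and 4930408O17Rik, the highest were Strn4, a scaffold of phosphatase complexes, with 3 entries at its single site, and Rgl3, a Ral guanine nucleotide exchange factor, with 2. Ephb2, a receptor of axon guidance, had 1 of 4 sites covered at 0 h and a mean of 0.25.

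By the mean over sites, 953 genes (11.9%) passed a 2-fold difference upward on the log2(mean + 1) scale and 217 (2.70%) passed it downward. This scale understates the difference of low genes. Counting any difference, 2671 genes (33.2%) were higher, 1749 (21.8%) were lower and 3614 were equal, and the median difference was 0. With each library divided by its mean entries per site, 420 were 2-fold higher and 218 lower, so the higher genes made up 65.8% of the 2-fold calls in place of 81.5%. On that scale the median log2 ratio of genes covered at both times was -0.28, and 2312 genes were higher and 4070 lower by any amount. Of the 3614 genes equal as deposited, 1652 were covered at neither time, and the others count as lower on that scale. The balance of higher and lower genes therefore depends on the scaling, and much of the rise in lower genes comes from such ties. Gained and lost calls use no scaling, so they are not corrected for the different totals of the libraries, 42527 entries at 0 h and 59437 at 2 h.

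Among genes covered at both times with 3 or more sites, the largest gains in mean entries came with complete covering. Ranking by the mean over all sites itself favours a low 0 h mean and complete covering at 2 h. Tsc22d2, a leucine zipper regulator, went from 5 of 8 sites at 0 h to all 8 at 2 h, with means of 0.62, 3, 0.75, 7 and 8 entries. Lmnb1, of the nuclear lamina, had 5 of 8 sites covered at 0 h and means of 0.62, 0.62, 0.5, 5 and 6. Tbx18, a T-box factor, had 2 of 7 and means of 0.71, 5, 1.14, 6 and 6. Tob1, an antiproliferative regulator of messenger RNA decay, had 3 of 11 and means of 0.82, 3.64, 3.27, 6 and 6. Galnt3, an enzyme that starts O-linked glycosylation, had 2 of 4 and means of 1, 1.5, 0.5, 4 and 6. All of these had every site covered at 1.5 h and 2 h, and in each the 0 h mean was at or below 1 entry.

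Runx2, a factor of bone formation and a mesenchymal marker here, differed between its start regions. Its 7 sites spanned chr17:44736164-44777197, and 5 of them at one end held 0, 4, 0, 4 and 7 entries, while the other 2 sites held 2 entries in every library. Twist1, the other mesenchymal marker with sites, had means of 0.86, 1.29, 1.71, 6 and 4 over 7 sites. Both mesenchymal markers measured, of 7 listed, were thus higher at 2 h, and their part in other differences was not tested.

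The 8 genes with the largest lower differences, taken among those with 3 or more sites and covered at both times, held 6 or 7 entries per site at 0 h. Kifc3, a kinesin motor that moves toward microtubule minus ends, held 7, 8, 0, 5 and 0.67 entries over 3 sites, at chr8:95142400-95142571. Sgpl1, which breaks down sphingosine phosphate, held 6, 6, 6, 5 and 1.25. Ddx6, a helicase of messenger RNA storage granules, held 6, 0.86, 0.86, 5 and 1.43, with 7 of 7 sites covered at 0 h and 5 at 2 h. Fchsd2, a protein of endocytosis, held 6, 4, 2, 3 and 1.33. In Kifc3, Sgpl1 and Ddx6 the 1.5 h value was 5 entries, so most of the difference was not seen at 1.5 h, although Kifc3 and Ddx6 were low at 1 h.

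Other genes took mixed courses. Pknox2, a homeodomain factor, held 6, 4, 3, 3 and 2 entries over 6 sites, and the palmitoyl transferase gene Zdhhc17 held 6, 3, 2, 2 and 2 over 5. Bag2, a co-chaperone, held 6, 5, 5, 4 and 2, and Ppp2r3d, a phosphatase regulatory subunit, held 7, 7, 7, 4.33 and 2.83. Svil, a membrane-linked actin binding protein, held 8, 7, 1, 8 and 1 over 2 sites and had lost no site. In Zdhhc17 the 2 h value was already reached at 1 h, whereas Svil at 1.5 h equalled its value at 0 h.

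There were 63 genes with both gained and lost sites, of which the 5 named by rule are described. Rybp, of the Polycomb repressive complexes, had 30 sites at chr6:100286723-100287798, with 20 gained and 4 lost. At 0 h its most upstream site held 3 entries and its 4 most downstream sites held 2, and all 30 sites held 7 at 1.5 h. At 2 h the 21 upstream sites held 4 entries and the 9 downstream sites held 0. Cux1, a homeodomain factor, gained 11 of 15 sites and lost 2, with means of 1.07, 3.07, 0.8, 5 and 3.47. Sipa1l2, a Rap GTPase activator, gained 8 of 18 and lost 2, with means of 1.22, 6, 0.56, 4 and 1.67, and all 18 were covered at 0.5 and 1.5 h. Its difference from 0 h to 2 h was negative, at -0.0243, with each library divided by its mean. In Rybp, Cux1 and Sipa1l2 the lost sites were covered at 1.5 h, when all their sites were covered. Hectd4 gained 4 and lost 3 of 10 sites, and Gm6277 gained 5 and lost 2 of 8.

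The gained sites lay at a larger median distance downstream than the sites covered at both times, though nearer than the sites covered at neither. The distance was taken to the outermost RefSeq 5′ end of the site's gene, which 94.6% of the named sites had. An alternative start inside the gene therefore counts as downstream. Gained sites lay a median of 367.75 bp downstream (quartiles 130 and 898), sites covered at both times 197 bp, sites covered at neither 540.75 bp and lost sites 606 bp. Whether a site lies in an exon, intron or UTR was not analysed. The share of sites gained was 10.9% in the 100 bp just upstream of the 5′ end, 25.1% at 250 to 500 bp downstream and 25.3% at 500 to 750 bp downstream. It was 23.9% at 500 to 250 bp upstream. In the bin at 500 to 750 bp downstream, the covered shares in the 0, 1.5 and 2 h libraries were 36.1, 63.1 and 59.8%. In the 100 bp just upstream, the 0 h library already covered 69.9%, which leaves fewer sites that could be gained. Of the sites uncovered at 0 h, 36.1% were gained there, 45.9% at 250 to 500 bp downstream and 39.6% at 500 to 750 bp downstream. The highest such share, 47.1%, was found at 500 to 250 bp upstream. Nearer the 5′ end it was higher downstream than upstream, at 41.4% against 36.1% within 100 bp and 45.3% against 40.8% at 100 to 250 bp. The sides thus differed in direction between bins, and over 500 bp upstream the share was 27.6%.

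**Figure D4:**
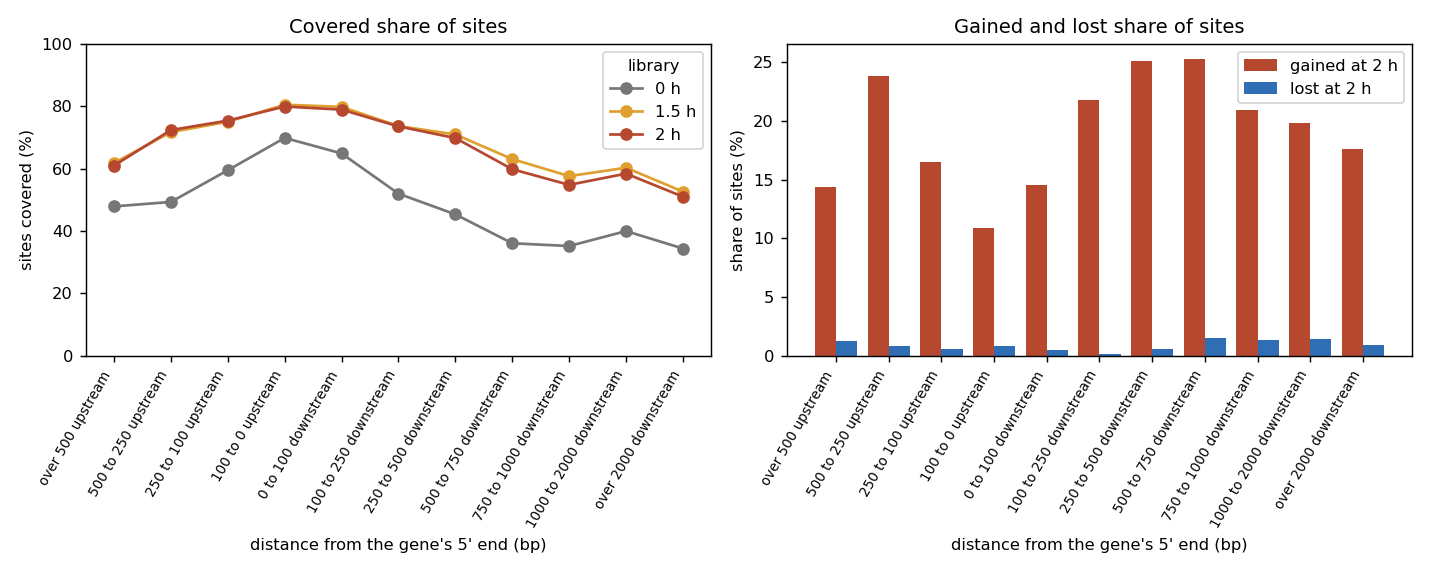
Left, share of sites covered (%) at 0, 1.5 and 2 h in bins of distance (bp) from the RefSeq 5′ end of the site's gene. Right, share of all sites in each bin that were gained or lost at 2 h (%); gained sites are least frequent at 100 to 0 bp upstream (10.9%) and reach 25.3% at 500 to 750 bp downstream.

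Gained sites were found on every chromosome but Y, where none of 25 sites was covered at either time. The share gained was lowest on chromosome 7 (14.4%) and highest on chromosome 3 (22.8%), and the share lost was highest on chromosome 9 (1.70%).

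Promoter windows that were gained, or covered at both times with gained sites, were richer in CpG than covered windows with no site changed. Of 32817 RefSeq promoter windows, 4711 held 1 or more sites, and each was classed by the sites it holds. The 318 gained windows had a median of 42 CpG dinucleotides per 300 bases (quartiles 35 and 49) and the 276 windows covered at both times with gained sites had 45 (41 and 50.25). The 3304 windows covered at both times with no site changed had 31 (26 and 37), the 762 uncovered at both times 33 (26 and 42) and the 27 lost windows 29 (25 and 42). The median over all RefSeq windows was 7. The median G and C content was 77% in gained windows and 68% in unchanged covered windows.

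Windows with more sites also held more CpG. In windows with exactly 1 site, the median was 35 in the 87 gained windows, 27 in the 1718 unchanged covered windows and 27 in the 344 uncovered windows. In windows with 2 or more sites, it was 45 in 231 gained, 36 in 1586 unchanged covered and 40 in 418 uncovered windows. The gained windows were thus the richer ones at either number of sites, with overlapping quartiles. This split by site number was added after the data were seen.

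**Figure D5:**
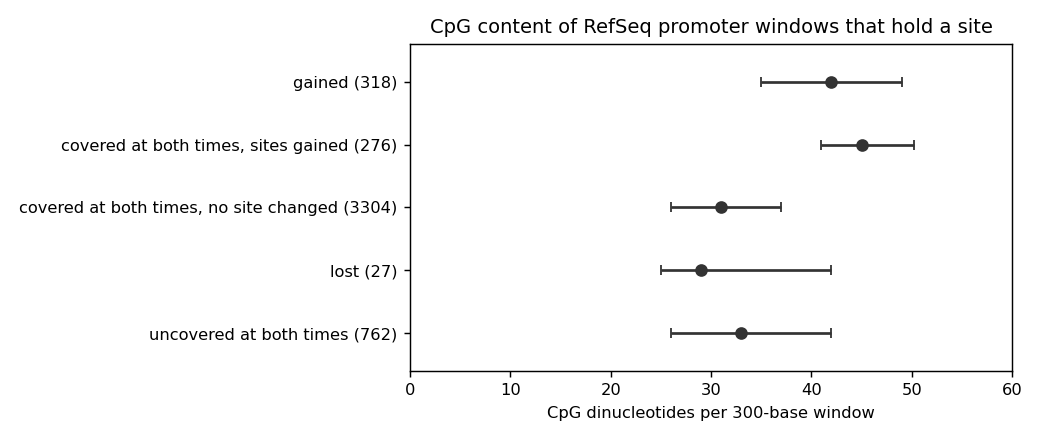
Median (points) and quartiles (bars) of CpG dinucleotides per 300-base RefSeq promoter window, by class of window at 0 h and 2 h, with the number of windows in brackets. The gained windows (median 42) and the covered windows with gained sites (45) lie above the covered windows with no change (31).

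Short motifs were counted on both strands of the same windows, as letters and not as bound sites. The CCAAT box (CCAAT) was found in 11.9% of gained windows, 15.9% of covered windows with gained sites, 34.4% of unchanged covered windows, 20.6% of uncovered windows and 37.4% of all RefSeq windows. The ETS site (CCGGAAG) was found in 5.97%, 14.1%, 19.6%, 5.64% and 8.86%, in the same order. The SP/KLF box (GGGCGG) was found in 91.2%, 95.3%, 83.9%, 83.5% and 35.6%, and the TATA box (TATAAA) in 1.57%, 3.26%, 6.45%, 7.35% and 13.6%. The gained windows thus held CCAAT, ETS and TATA letters less often, and GGGCGG more often, than the unchanged covered windows, and they are also richer in G and C. The AP-1 site (TGANTCA), the palindromic E-box (CACGTG), the CRE (TGACGTCA) and the homeodomain site (TAATTA) were in 1.57%, 7.23%, 1.26% and 0.943% of gained windows. They were in 3.06%, 11.7%, 3.57% and 0.817% of unchanged covered windows and in 7.81%, 7.15%, 1.79% and 5.30% of all RefSeq windows. Motifs may overlap each other, and overlaps were not removed.

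Gene groups were described by counts, beside the 6.17% of all genes gained, 23.7% with a gained site, 33.2% higher and 21.8% lower. Genes covered at both times had a median of 7 sites when a site was gained and 2 when none changed. The 51 chromatin remodellers held 426 sites, the 36 TGF-beta and BMP genes 256, and the 42 Sox, Fox, Zic and Gli genes 276. All 8034 genes held 33952. Counts of genes with a gained site were not adjusted for this and are not read as a trait of a group. In the TGF-beta and BMP pathway, whose ligands signal through receptors to Smad factors, 36 of 45 listed genes had sites. Of these 4 were gained and 1 lost, 18 had a gained site, and 19 were higher and 6 lower, or 17 and 14 with each library divided by its mean. The ligand gene Bmp2 was first covered at 2 h, and the receptor gene Bmpr2 had means of 1.5, 3, 3, 4 and 6 over 6 sites. Smad5, which carries the BMP signal, had means of 0.62, 5, 0.56, 6 and 4 over 16 sites, of which 5 were covered at 0 h and all at 2 h. The inhibitors Smurf2, a ubiquitin ligase, and Skil, a Smad repressor, were gained, with means of 0, 4, 0, 5 and 5 over 4 sites and 0, 0.44, 0, 7 and 3.5 over 16. The BMP antagonist gene Nog was gained with 2 of 5 sites at 2 h and 4 at 1.5 h, and Tgif2 was lost.

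In the insulin, PI3K, mTOR and FoxO pathway, 33 of 48 listed genes had sites, 2 were gained, 1 was lost and 14 had a gained site. 18 were higher and 5 lower, or 17 and 14 with each library divided by its mean. Beside Rictor, the mTOR subunit gene Rptor was gained at its single site with 0, 2, 2, 3 and 3 entries, and Eif4ebp2, a repressor of translation initiation, had means of 0.6, 4, 4, 4 and 4 over 5 sites. Igfbp3, which binds insulin-like growth factors, was gained at all 8 sites with means of 0, 1.5, 0, 0.62 and 1.5, while Igfbp4 held 5, 6, 1, 1 and 1 at its single site. Akt1 was the lost gene.

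In the Wnt pathway 39 of 51 listed genes had sites, 4 were gained, 1 was lost, and 15 were higher and 8 lower, or 14 and 13 with each library divided by its mean. The receptor gene Fzd8 was gained at 1 of 2 sites, with 7 entries at that site at 1.5 h and at 2 h and 0 before. The receptor genes Fzd2 and Fzd5 were at 2 and 5 entries per site at 0 h and at 0 and 2 at 2 h. Tcf7, a factor at the end of the pathway, moved its covering: its farthest downstream site held 1 entry at 0 h and 0 at 2 h, and its other 4 sites held 0 at 0 h and 4 at 2 h, with no entry in any of the 5 sites at 1.5 h. Csnk1a1, a kinase that marks beta-catenin for decay, went from 7 of 7 sites with a mean of 4 entries to 3 sites with a mean of 0.43.

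In the Notch pathway 28 of 40 listed genes had sites, 2 were gained and none was lost. 9 were higher and 6 lower, but 9 and 13 with each library divided by its mean. The receptor gene Notch1 was gained at all 4 sites, with means of 0, 1, 0, 1 and 3, and the effector gene Hey1 at all 5, with 0, 0.8, 0.8, 3 and 3. The receptor gene Notch2 held 4, 3, 3, 2 and 2 over 4 sites.

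Of 37 proneural and neuronal transcription factors with sites, 9 were covered at 0 h and 16 at both 1.5 h and 2 h, and none was lost. The 28 uncovered at 0 h could be gained and 7 of them were (25%), a share near the 23.1% of all 2148 genes uncovered at 0 h. The gained ones were Ebf1, Eomes, Lhx2, Neurog1, Phox2a, Pou2f2 and Scrt2, and all 7 were covered at 1.5 h. Their levels at 2 h were low, from 2 entries per site in Ebf1 and Eomes down to 0.43 over the 7 sites of Lhx2. Neurog2, a proneural factor that drives cells out of the progenitor state, was covered at both times with means of 2, 4, 4, 5 and 4. Rest, a repressor of neuronal genes, had means of 1.47, 6, 5, 6 and 5.68 over 19 sites. Of 42 Sox, Fox, Zic and Gli factors, 5 were gained (Foxm1, Foxp4, Glis1, Sox21 and Zic5), 1 was lost (Sox6), 20 had a gained site, and 23 were higher and 5 lower, or 20 and 11 with each library divided by its mean.

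Among the 51 chromatin remodellers, which move or evict nucleosomes, 6 were gained (Brd7, Cecr2, Dpf1, Rsf1, Smarca2 and Smarcd3), Chd4 was lost and 26 had a gained site. 27 were higher and 10 lower, but 23 and 26 with each library divided by its mean. Smarca2, an ATPase of the BAF complex, had means of 0, 0.88, 0, 5 and 1.75 over 8 sites, and Rsf1 held 0, 6, 3, 3 and 6 entries at its single site. Of 42 histone methylation enzymes, 5 were gained and 2 lost, and 18 were higher and 8 lower, but 16 and 21 with that scaling. The gained ones were the demethylase genes Kdm7a, Kdm6a, Kdm3b and Kdm5b and the methyltransferase gene Dot1l, and the lost ones were the demethylase genes Kdm5a and Kdm6b. Kdm5a held 4, 4, 0, 4 and 0 entries at its single site, and Kdm6a had means of 0, 1.5, 4, 4 and 4 over 2. Ezh2, the Polycomb methyltransferase, was covered at both times with means of 1.88, 6, 4, 5 and 5.

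Each metabolic and ribosomal group described here held at most 2 genes with a gained site, beside 23.7% of all genes. Most of their genes were covered at 0 h already, among them 13 of 13 cycle genes and 37 of 38 cytosolic ribosomal protein genes. Their sites were also few, with 22 and 76 in these groups, beside 33952 over all 8034 genes. Few genes or sites could therefore be gained, and the low counts are not read as a trait of these groups. None of 13 tricarboxylic acid cycle or pyruvate dehydrogenase genes had a gained or lost site, and 9 were lower and 1 higher, with a median difference of -1 entry. Dld, a subunit shared by the dehydrogenase complexes, held 5, 4, 3, 3 and 2 over 2 sites, and the cycle genes Sucla2 and Dlst held 4 and 3 entries at 0 h, 4 and 3 at 1.5 h and 2 and 1 at 2 h. Of 18 mitochondrial protein import genes, 5 were higher and 9 lower and 1 had a gained site, and of 22 mitochondrial ribosomal protein genes, 4 were higher and 9 lower and 1 had a gained site. Of 38 cytosolic ribosomal protein genes, 24 were equal, 6 higher and 8 lower and 1 had a gained site. Of 15 glycolysis genes 4 were higher and 6 lower, 1 had a gained site, none was gained and Gapdh and Pkm were lost, Pkm with 1, 2, 0, 3 and 0 entries. With each library divided by its mean, 50.7% of all genes were lower, and 12, 13, 18, 32 and 11 genes of these groups were, in the order given. The share over all genes includes the 1652 covered at neither time, which cannot be lower. Covered genes with equal entries at 0 h and 2 h also count as lower with that scaling. These counts are therefore not read as a trait of the groups. Of 22 respiratory chain and ATP synthase genes, 7 were higher and 9 lower, or 5 and 17 with that scaling, and 2 had a gained site. Among them the ATP synthase subunit gene Atp5j was gained at its single site with 0, 5, 4, 5 and 5 entries.

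Of 34 immediate early and stress genes, which respond to a change of medium within minutes to hours, 10 were higher and 12 lower, or 7 and 24 with each library divided by its mean. In this group 2 were gained (Ier5 and Klf10) and Junb was lost. Ppp1r15a, a phosphatase subunit of the stress response, held 5, 3, 3, 2 and 1 entries at its single site, so its value was lower in each later library or equal to the one before. Fos held 4, 3, 4, 4 and 2. Klf10, a factor induced by TGF-beta, had means of 0, 3.17, 0.5, 2 and 1.67 over 6 sites.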

How the data were processed

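The members, gene lists and naming rules were chosen with earlier results of these data known. Per the submitters' processing notes, the authors used Bowtie2, MACS2, deepTools and build GRCm38 (mm10), with no versions or settings given. The deposited table holds 1 column per library of whole numbers from 0, with no unit named in the file headers, and the deposited values were read as BED entries over each site, an inference from the values. No read count was used. Sites were analysed in Python 3.11.15 with pandas 2.3.3 and scipy 1.17.1. Every site of a gene symbol entered its mean over sites, and symbols whose sites span over 500 kb (14) were not named. The named genes were the 10 gained and 10 lost with the highest means among those with 2 or more sites, the 8 largest differences in each direction among genes covered at both times with 3 or more sites, 5 genes with the most gained and lost sites, genes named in an earlier account, and the 4 largest differences of each list with its other gained or lost members. With 1 library per time no test was run, and shares carry Wilson 95% intervals for counting error only. Ratios use log2(mean + 1). Scripts were tested on simulated data. RefSeq GRCm38.p6 matched 7584 of 8034 symbols and supplied 5′ ends and windows, and 762 sites without a gene name entered site counts only. Alternatives were the covering limit, the sites or genes used, merged regions, the highest site, the pseudocount, a filter on low values and scaling by library mean.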

Additional observations from a re-analysis of the deposited data

Results flagged for a closer look

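Of the 762 sites without a gene name, which enter no gene result, 271 held entries in the 2 h library, 270 in the 1.5 h library and 233 in the 0 h library, so entries are present outside the named genes. Among them 43 were gained, 37 of which were covered at 1.5 h, and 5 were lost.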

How the results depend on the processing

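Of 41 alternative counts and shares, 27 stayed within 1.5 times the reported count or within the interval of the share. Gained outnumbered lost in all 5 settings with site counts and all 5 with gene counts. These settings use the same 0 h and 2 h libraries, and none adjusts for their different totals. They therefore cannot show what part the totals have in that balance. With 2 or more entries required, 1316 sites and 471 genes were lost, 861 genes were gained and 87.7% of gained sites were covered at 1.5 h. Within 1000 bp of the 5′ end, 162 sites and 46 genes were lost, and 39 lost genes had 2 or more sites. As regions merged within 500 bp, 552 were gained, 102 lost and 87.3% of the gained covered at 1.5 h; within 200 bp, 953, 135 and 89.6%. With each library divided by its mean entries per site, 420 genes were 2-fold higher. Of 410 values of 205 named genes under alternatives, 3 reversed: Cdh2 at -0.334 and Sipa1l2 at -0.0243 with that scaling, and Sipa1l2 at -2 by its highest site. The cause of these differences was not tested. No paired analysis was possible because each time has 1 library and the labels give no replicate numbers. Read depth is unknown, so a value of 0 does not show closed chromatin.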
